A study of Mus musculus with 48 samples.

Results

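Gastrocnemius transcripts were compared between male hCYP2B6-Tg mice given perfluorooctane sulfonate (PFOS) at 10 mg/kg/day (4 mice) and male hCYP2B6-Tg mice given 0 mg/kg/day (5 mice). These 9 libraries were taken by genotype, sex and dose from a set of 48. Dosing was by oral gavage for 21 days in every group, so the 0 mg/kg/day mice also received the gavage. hCYP2B6-Tg names mice that carry the human cytochrome P450 gene CYP2B6. The labels give neither the promoter of the transgene, nor the background strain, nor the age of the mice. hCYP2B6-Tg males at 1 mg/kg/day (4 mice), hCYP2B6-Tg females (4 mice at 10 and 4 at 0 mg/kg/day), Cyp2b-null females (4 and 4) and Cyp2b-null males (3 and 4) are used for comparison. Sex and genotype together define 4 strata.

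PFOS is a persistent fluorinated surfactant, and the series is titled for mitochondrial metabolism in skeletal muscle. Gastrocnemius is a calf muscle of mostly fast, glycolytic fibres, with a smaller oxidative region that holds slow fibres. A fibre's myosin heavy chain marks its type: Myh4, Myh1 and Myh2 mark fast fibres from the most glycolytic to the most oxidative, and Myh7 marks slow fibres. Mitochondria make ATP with respiratory complexes whose subunits are encoded partly in the nucleus and partly in mitochondrial DNA. When muscle is fasted or exposed to glucocorticoids, FOXO transcription factors raise genes of protein breakdown.

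The single libraries differed in fibre type and in fat before any gene was tested. The mean log2 CPM (counts scaled to library size) of 18 slow fibre markers was 4.50, 7.64, 5.55 and 7.43 in 10 mg replicates 1 to 4, against 4.98, 2.00, 4.24, 1.50 and 5.68 in 0 mg replicates 1 to 5. The 10 mg replicates 2 and 4 were the richest in slow fibre transcripts, the 0 mg replicates 2 and 4 nearly lacked them, and the groups overlapped. Myh7 itself had 42.7, 2410, 294 and 1864 CPM in the 10 mg libraries, against 95.4, 0.508, 92.6, 0 and 308 CPM in the 0 mg libraries. Scaled per kilobase, Myh7 made up 0.0569, 4.10, 0.534 and 2.19% of the 4 adult myosin heavy chains at 10 mg and 0 to 0.314% at 0 mg, and Myh4 made up 81.0 to 93.9% at 10 mg and 92.7 to 98.5% at 0 mg. Myh4, the heavy chain of the most glycolytic fibres, was thus the main myosin of every library, as in gastrocnemius.

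Fat followed another pattern. The 19 adipocyte markers averaged a log2 CPM of 2.42, 6.12, 5.33 and 4.52 in the 10 mg libraries, against 3.58, 1.61, 2.85, 2.02 and 4.21 in the 0 mg libraries. Replicates 2, 3 and 4 at 10 mg were above every 0 mg library, while replicate 1 at 10 mg lay below 3 of them. Transcripts of Ucp1, the uncoupling protein of brown fat, were counted 0, 47, 1 and 39 times in the 10 mg libraries and 0 times in each of the 5 libraries at 0 mg, where a floor of 3 counts applies. The 10 mg replicate 3 also held 71 counts of Glycam1, an adhesion molecule of lymph node vessels, which had 0 counts in the other 8 libraries. Tendon markers were highest in 0 mg replicate 5, at a mean log2 CPM of 3.64, against at most 1.07 in any 10 mg library. The extraction text of the labels names liver while the tissue field names gastrocnemius; of 14 liver markers 8 were below the filter on low counts, and the mean log2 CPM of the others was -2.76 to 0.61 at 10 mg and -3.61 to -1.16 at 0 mg. Whether these libraries sampled different parts of the tissue was not tested. In bulk tissue, fewer cells of a type and less RNA per cell cannot be told apart.

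**Figure D1:**
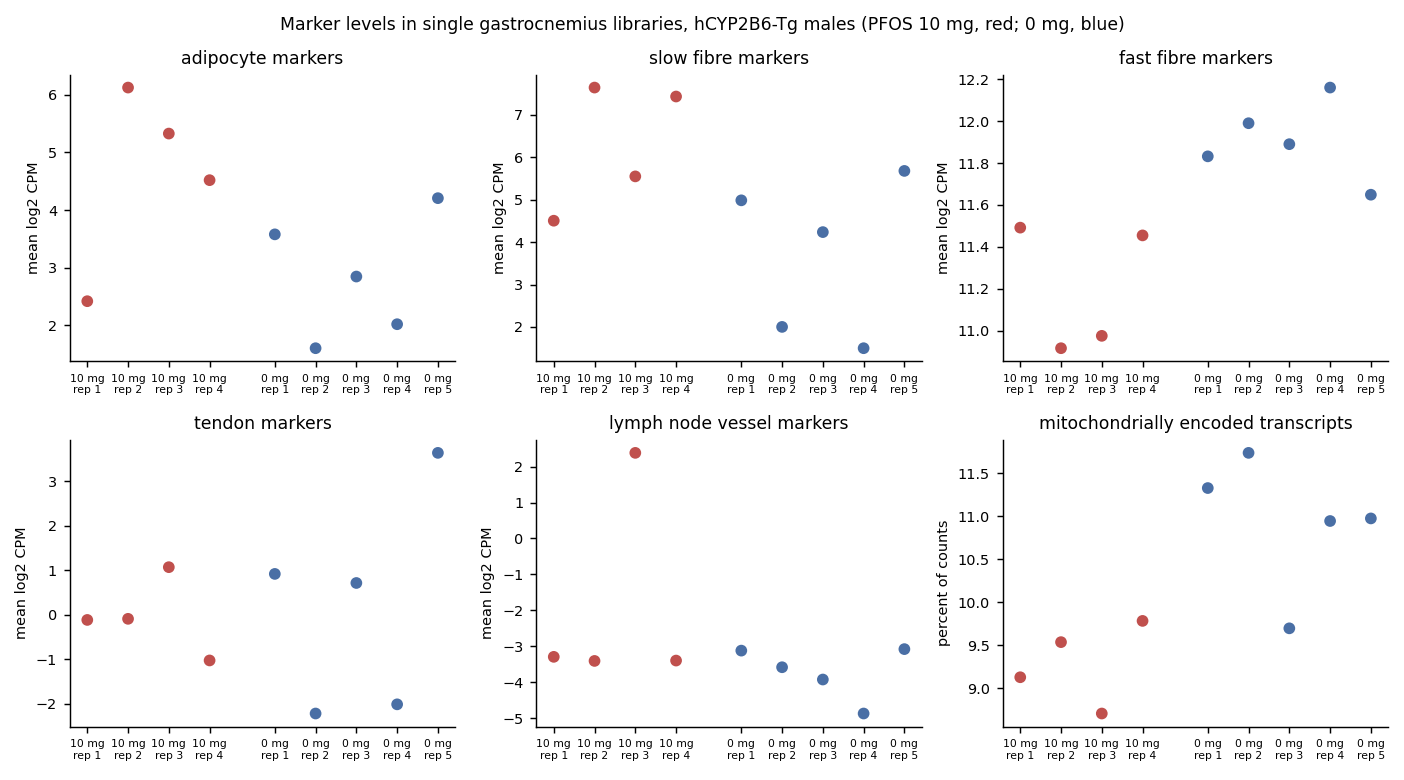
Marker levels in each library of hCYP2B6-Tg males, with 10 mg/kg/day in red and 0 mg/kg/day in blue; the vertical axes are the mean log2 CPM of each marker list or the percent of counts from mitochondrial DNA. Slow fibre and adipocyte levels overlap between the doses, whereas the fast fibre level lies between 10.92 and 11.49 at 10 mg and between 11.65 and 12.16 at 0 mg.

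Library totals ran from 13075906 to 15221498 counts at 10 mg and from 11571142 to 15246168 counts at 0 mg. The library numbers in the labels did not overlap between the doses, so whatever these numbers record cannot be told apart from dose. Transcripts of mitochondrial DNA took 9.13, 9.54, 8.71 and 9.78% of counts at 10 mg, against 11.3, 11.7, 9.70, 10.9 and 11.0% at 0 mg. The mean was 9.29 ± 0.47% (SD, n = 4) at 10 mg and 10.9 ± 0.76% (SD, n = 5) at 0 mg, and the groups overlapped in 1 library (exact two-sided permutation test, p = 0.0317, adjusted over 3 library measures 0.0476). The 20 most abundant genes took 29.1 to 34.7% of counts at 10 mg and 35.2 to 39.1% at 0 mg, with no overlap (exact permutation p = 0.0159, the smallest that 126 regroupings allow, adjusted 0.0476). The third measure, the number of genes detected, averaged 20464 ± 995 at 10 mg and 19198 ± 687 at 0 mg (SD, n = 4 and 5) and did not pass (exact permutation p = 0.0635, adjusted 0.0635).

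Across the transcriptome, 2882 of 15583 genes tested passed an adjusted p of 0.05 by edgeR's quasi-likelihood test, 1234 higher and 1648 lower at 10 mg than at 0 mg. That is 18.5% of genes, 7.92% higher and 10.6% lower, and the median log2 fold change over all genes was 0.02. A change of at least 2-fold was seen in 413 of the genes that rose and 335 of those that fell. Of the 2882 genes, 1581 had no overlap between the single libraries of the groups; over all genes tested, 5.69% were higher without overlap and 7.3% lower without overlap. The 10 mg replicate 1 was the lowest of the 10 mg libraries in fat and slow fibre transcripts. It lay above every 0 mg library for 66.8% of the genes that rose and below every 0 mg library for 75.3% of those that fell. In replicate 3 the same shares were 93.9% and 95.8%. The genes were called in a fit that includes these libraries. High shares therefore follow in part from that choice and are no test of a single library.

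The count of genes depended on single libraries. It was 1540 without 10 mg replicate 3 and 1887 without 10 mg replicate 2. Without replicates 2 and 4 at 10 mg it was 1652, of which 1491 were among the 2882. With only replicate 1 left at 10 mg, 26 genes passed (17 higher and 9 lower) in a fit that assumes this library to vary like the other groups. With the adipocyte and slow fibre marker levels as covariates it was 1308, of which 1061 were among the 2882. On library totals without a scaling factor, 85.2% of 4690 calls were higher, against 42.8% on scaled totals, and the median of all genes moved to 0.28 on the log2 scale.

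Nuclear genes of oxidative phosphorylation fell together. In complex I, which takes electrons from NADH, 30 of 36 tested subunits were lower and 0 higher (median log2 fold change -0.55). The 14 genes tested for cytochrome c and complexes II and III were all lower (median -0.58), as were 9 of 15 in complex IV (median -0.45) and 13 of 15 in ATP synthase (median -0.53), with 0 higher in each. Counts for 2 of these lists moved by more than 1.5 times with single libraries: complex IV had 3 lower without 10 mg replicate 3, 5 without 10 mg replicate 2 and 5 without 0 mg replicate 4, and complexes II and III had 9 without 10 mg replicate 3. Without 10 mg replicates 2 and 4, the medians were -0.61 for complex I and -0.61 for ATP synthase, and with both marker covariates -0.39 and -0.48. The falls were smaller on library totals without a scaling factor. There the median was -0.30 for complex I, with 18 lower, and -0.32 for complexes II and III with cytochrome c, with 8 lower. For complex IV it was -0.19, with 4 lower and 3 higher.

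Ndufs1, the largest subunit of complex I, had 236.8, 202.0, 162.8 and 241.0 CPM at 10 mg, against 406, 457, 333, 404 and 355 CPM at 0 mg. The groups did not overlap, and the log2 fold change was -0.89 ± 0.13 (SE; edgeR adjusted p = 1.3e-05). Cycs, the electron carrier cytochrome c, had 116.5 to 187.4 CPM at 10 mg and 218 to 343 CPM at 0 mg. It too did not overlap, with a log2 fold change of -0.92 ± 0.14 (edgeR adjusted p = 2.9e-05). Cyc1 and Uqcrc1 of complex III (-0.90 and -0.79), Cox5b of complex IV (-0.65), and Atp5g3, the ring subunit of ATP synthase, and its catalytic subunit Atp5b (-0.84 and -0.53) fell without overlap as well, and all 4 replicates at 10 mg were lower than every 0 mg library.

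Of the 13 proteins encoded in mitochondrial DNA, 7 were lower and 0 higher (median -0.46). mt-Co1, the catalytic subunit of complex IV, had 28138, 25935, 23035 and 30109 CPM at 10 mg, against 40159, 42254, 33217, 41699 and 35119 CPM at 0 mg (log2 fold change -0.52 ± 0.13, edgeR adjusted p = 0.0038). The groups did not overlap. Without 10 mg replicate 3, 2 of the 13 passed, and with both marker covariates 1 passed.

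The tricarboxylic acid cycle and pyruvate dehydrogenase, which feed the respiratory chain, had 16 of 23 genes lower and 0 higher (median -0.54). On library totals without a scaling factor 13 were lower and 3 higher (median -0.28). Pdhx and Dlat, subunits of pyruvate dehydrogenase, fell by 0.79 and 0.86 on the log2 scale. Idh3a, of isocitrate dehydrogenase, and Cs, citrate synthase, fell by 0.91 and 0.53. Mitochondrial ribosomal proteins had 36 of 77 lower and 1 higher (median -0.27). Without 10 mg replicate 3, 19 were lower, with 22 without 10 mg replicate 2 and 22 without 0 mg replicate 4. On unscaled library totals 9 were lower and 8 higher (median -0.01). Of 22 genes of mitochondrial biogenesis and dynamics 10 were lower and 1 higher. Among these, Esrra, the estrogen-related receptor that drives genes of oxidative metabolism, had 61.3, 62.2, 37.5 and 77.0 CPM at 10 mg and 128.2, 142.4, 110.3, 133.8 and 99.3 CPM at 0 mg, without overlap (log2 fold change -1.05 ± 0.15, edgeR adjusted p = 1.3e-05). Its coactivator Ppargc1a did not pass (-0.36 ± 0.19, edgeR adjusted p = 0.18), but did with the slow fibre markers as a covariate (-0.59, adjusted p = 0.035). Opa1 and Dnm1l, which fuse and divide mitochondria, fell by 0.57 and 0.65.

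**Figure D2:**
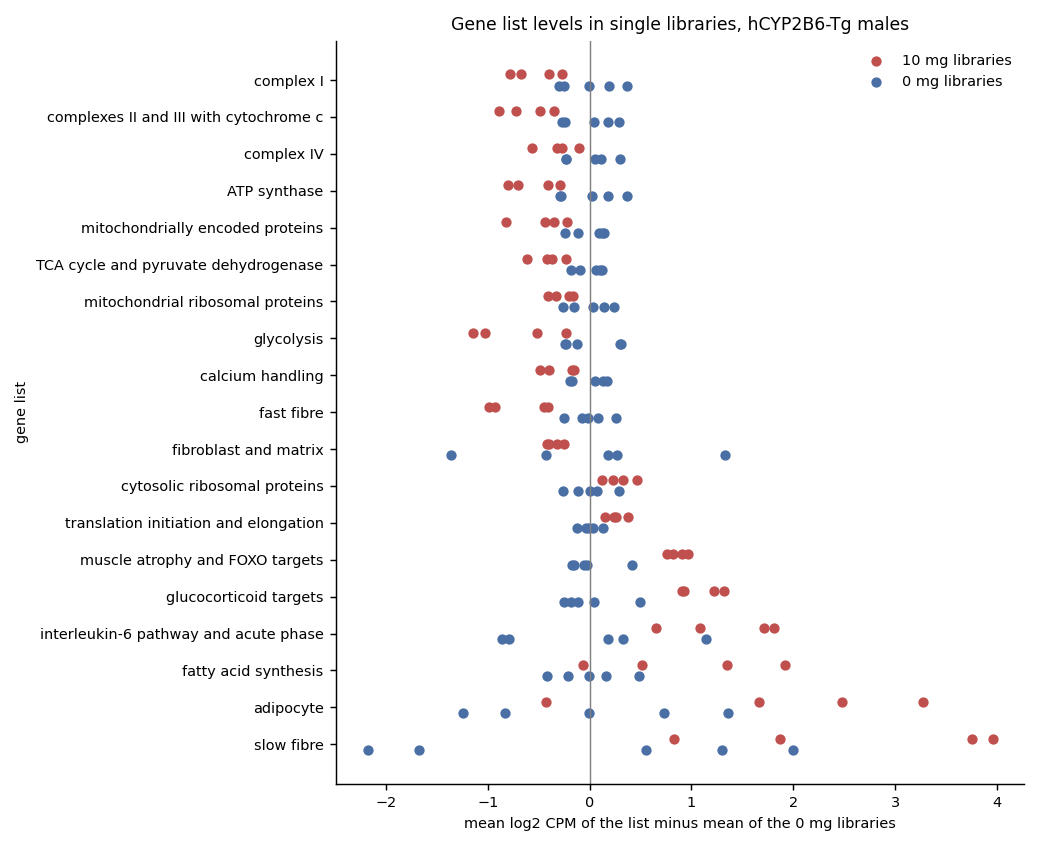
Mean log2 CPM of each gene list in every library, minus the mean of the 0 mg libraries, with 10 mg/kg/day in red above 0 mg/kg/day in blue. Lists of mitochondrial genes lie to the left of 0 at 10 mg with a small spread, whereas adipocyte and slow fibre levels spread widely within both groups.

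Because Esrra fell with genes of the respiratory chain, the promoters of these genes were searched for the half-site that estrogen-related receptors bind, AAGGTCA, on both strands in the 250 bases before the start. RefSeq promoters (GRCm38.p6) were found for 54 of the 66 nuclear respiratory genes that fell, with 58 promoters in all. The half-site was in 4 of them, or 6.9%, against 4.08% of all promoters in the table. The 3 promoters shown carry it, with the half-site in capitals (TGACCTT where it lies on the other strand):
Atp5g3 (chr2:73911327-73911576, minus strand): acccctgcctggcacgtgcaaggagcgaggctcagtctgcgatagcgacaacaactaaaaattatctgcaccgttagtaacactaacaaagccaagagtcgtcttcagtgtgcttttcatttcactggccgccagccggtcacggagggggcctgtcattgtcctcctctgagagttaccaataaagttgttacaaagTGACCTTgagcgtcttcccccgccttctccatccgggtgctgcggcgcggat
Ndufb4 (chr16:37654369-37654618, minus strand): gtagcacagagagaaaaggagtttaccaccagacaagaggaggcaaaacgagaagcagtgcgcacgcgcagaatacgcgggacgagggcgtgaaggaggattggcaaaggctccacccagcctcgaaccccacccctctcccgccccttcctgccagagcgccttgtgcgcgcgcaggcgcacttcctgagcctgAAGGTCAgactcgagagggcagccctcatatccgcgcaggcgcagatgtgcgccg
Ndufs5 (chr4:123718187-123718436, minus strand): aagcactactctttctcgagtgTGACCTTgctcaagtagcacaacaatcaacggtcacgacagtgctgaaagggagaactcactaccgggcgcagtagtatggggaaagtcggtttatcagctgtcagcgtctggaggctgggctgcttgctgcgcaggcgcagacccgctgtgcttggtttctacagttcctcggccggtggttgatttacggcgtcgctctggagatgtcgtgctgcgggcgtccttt
Atp5g3 fell without overlap (above), whereas Ndufb4 (-0.46 ± 0.14, edgeR adjusted p = 0.014) and Ndufs5 (-0.42 ± 0.12, edgeR adjusted p = 0.013) overlapped between the groups. Both lost their call without 10 mg replicate 2 (-0.39 and -0.36, edgeR adjusted p = 0.078 and 0.066), 10 mg replicate 3 (-0.42 and -0.34, adjusted p = 0.065 and 0.083) or 0 mg replicate 4 (-0.36 and -0.32, adjusted p = 0.072 and 0.072), and with either marker covariate. The half-site lies 52 bases before the start in Atp5g3, 55 in Ndufb4 and 228 in Ndufs5. A match of letters is a description and not evidence of binding.

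Glycolysis and the contractile and calcium genes of fast fibres were lower too. Of 16 glycolytic genes 10 were lower and 0 higher (median -0.87). The lower genes included Tpi1 (-1.22), Pkm (-1.08) and Gpd1 (-1.24), the last of which links glycolysis to lipid. Of 19 fast fibre markers 12 were lower and 0 higher (median -0.56), or 7 without 10 mg replicate 2. On library totals without a scaling factor 8 were lower and 2 higher (median -0.31). Myh4 had 49162, 33273, 35646 and 55254 CPM at 10 mg, against 67307, 76865, 85518, 77483 and 63599 CPM at 0 mg. The groups did not overlap (log2 fold change -0.78 ± 0.17, edgeR adjusted p = 0.0013). With both marker covariates it was -0.44 (edgeR adjusted p = 0.075).

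Of 23 calcium handling genes 12 were lower and 1 higher (median -0.39). On library totals without a scaling factor 6 were lower and 4 higher (median -0.14). Casq1, which stores calcium in the sarcoplasmic reticulum of fast fibres, had 1091, 635, 649 and 1068 CPM at 10 mg, against 2445, 2852, 2998, 3256 and 2152 CPM at 0 mg. Every 10 mg library was below every 0 mg library, with a log2 fold change of -1.67 ± 0.27 (edgeR adjusted p = 3.2e-05). Jph2, which ties the reticulum to the surface membrane, and Srl, sarcalumenin, fell by 1.22 and 0.62. In glycogen metabolism 2 of 13 genes were higher and 5 lower (15.4% and 38.5%, against 7.92% and 10.6% over all genes). Without 10 mg replicates 2 and 3 in turn, 3 and 2 were lower. Gyg, glycogenin, rose by 0.76 on the log2 scale.

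The largest falls included Actc1, the actin of heart and developing muscle, which had 34.4, 22.8, 6.99 and 95.7 CPM at 10 mg, against 240.9, 938.7, 212.8, 1180.5 and 199.4 CPM at 0 mg. The groups did not overlap (-3.80 ± 0.80, edgeR adjusted p = 0.00085), and the 2 highest controls were 0 mg replicates 2 and 4, the libraries that nearly lacked Myh7. With both marker covariates Actc1 was -2.16 (edgeR adjusted p = 0.092). Nrep, named for neuronal regeneration, had 11.0, 8.80, 6.12 and 16.2 CPM at 10 mg, against 102.4, 160.8, 134.2, 200.8 and 105.02 CPM at 0 mg. It was lower in every 10 mg library (-3.75 ± 0.42, edgeR adjusted p = 2.9e-07).

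Other large falls without overlap were Mdga1, a membrane-anchored adhesion protein (-3.25), Mybph, myosin binding protein H (-3.07), Dupd1, a muscle phosphatase (-3.06), and the potassium channel subunit Kcng4 (-3.04). Ostn, which encodes the muscle hormone musclin, fell by 2.90, and Mettl21c, a lysine methyltransferase of muscle, by 2.30. Gamt, which makes creatine, fell by 2.58, and the creatine transporter Slc6a8 by 0.53. Foxo6os fell by 2.72; it is antisense to Foxo6, and since use of strand is not given in the sources used here, their reads cannot be told apart. All of these were lower in 4 of 4 libraries at 10 mg than in any of the 5 libraries at 0 mg. Lack of overlap was a condition for choosing the largest falls. For all of them, Actc1 and Nrep included, it is therefore no separate finding. Slc6a8 was not chosen that way.

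**Figure D3:**
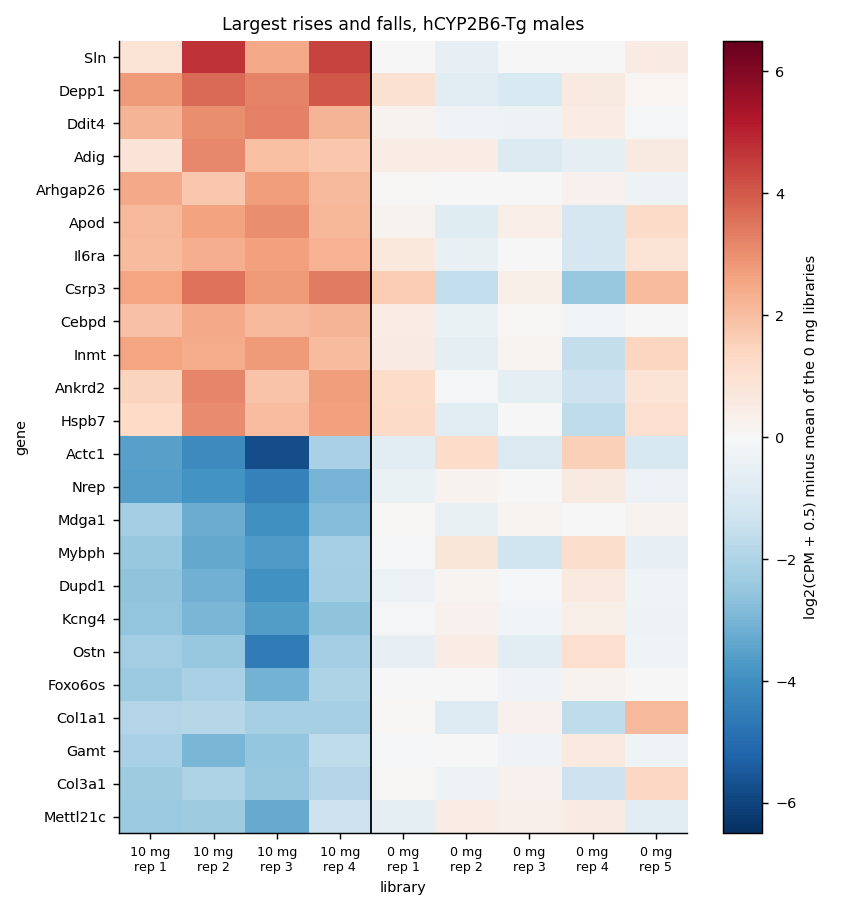
The 12 largest rises and 12 largest falls by the naming rule, as log2(CPM + 0.5) minus the mean of the 0 mg libraries, with 10 mg/kg/day libraries left of the line and 0 mg/kg/day libraries right of it. Sln and Adig are palest in 10 mg replicate 1, and Col1a1 is highest in 0 mg replicate 5.

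Genes of muscle atrophy and FOXO signalling rose: 14 of 29 were higher and 1 lower (median 0.73), and 14 were higher without overlap. The count was 9 without 10 mg replicate 2, 10 mg replicate 3 or 0 mg replicate 4. Over all genes tested, 7.92% were higher and 5.69% higher without overlap. Depp1, a FOXO-responsive gene, had 26.19, 50.02, 36.53 and 65.86 CPM at 10 mg, against 7.40, 1.95, 1.48, 5.52 and 3.83 CPM at 0 mg. No library overlapped (3.44 ± 0.57, edgeR adjusted p = 4.7e-05). Ddit4, which restrains the growth kinase mTOR, had 23.8, 42.4, 49.4 and 23.8 CPM at 10 mg and 5.50, 3.90, 3.61, 6.75 and 4.28 CPM at 0 mg, without overlap (2.86 ± 0.64, edgeR adjusted p = 0.0016). Eif4ebp1, a brake on translation initiation that mTOR releases, rose by 1.58.

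The muscle ubiquitin ligase Fbxo32 had 1068, 1108, 1056 and 1754 CPM at 10 mg and 720, 445, 661, 495 and 652 CPM at 0 mg (1.07 ± 0.34, edgeR adjusted p = 0.022). The groups did not overlap, but the call was lost without 10 mg replicate 4 (0.85, edgeR adjusted p = 0.091), without 0 mg replicate 2 (0.98, adjusted p = 0.062) and without 0 mg replicate 4 (1.01, adjusted p = 0.055). Trim63, the other ligase of this pair, had 459, 490, 485 and 909 CPM at 10 mg and 441, 239, 284, 321 and 252 CPM at 0 mg. Its libraries did not overlap, yet it did not pass (0.93 ± 0.41, edgeR adjusted p = 0.11). Its promoter is shown because it holds the FOXO motif GTAAACA, in capitals as TGTTTAC on the printed strand, 194 bases before the start. None of the 13 promoters found for the 14 genes of this list that rose holds that motif, which is in 3.17% of all promoters:
Trim63 (GRCm38.p6, chr4:134314870-134315119, plus strand): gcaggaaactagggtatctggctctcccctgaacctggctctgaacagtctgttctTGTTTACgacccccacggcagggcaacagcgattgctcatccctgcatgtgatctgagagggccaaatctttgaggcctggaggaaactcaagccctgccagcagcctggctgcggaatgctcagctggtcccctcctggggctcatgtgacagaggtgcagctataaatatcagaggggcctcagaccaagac

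Known glucocorticoid targets had 9 of 17 genes higher and 1 lower (median 0.99). Pik3r1, the regulatory subunit of the insulin-signalling kinase PI3K, had 83.3, 127.5, 132.6 and 103.6 CPM at 10 mg, against 35.8, 40.7, 25.4, 18.4 and 35.9 CPM at 0 mg. All 10 mg libraries were above all 0 mg libraries (1.84 ± 0.24, edgeR adjusted p = 2e-06). Glul, glutamine synthetase, had 605, 595, 581 and 672 CPM at 10 mg and 358.8, 112.5, 144.4, 75.2 and 203.3 CPM at 0 mg, again without overlap (1.78 ± 0.33, edgeR adjusted p = 0.00023). Cebpd, a transcription factor of the acute phase, rose by 2.21 and is on this list, the FOXO list and the interleukin-6 list. A match to the glucocorticoid receptor motif ACANNNTGT was in 2 of the 10 promoters found for the genes that rose, those of Glul and Mt1, against 5.84% of all promoters; in Glul it lies 25 bases before the start and is in capitals here:
Glul (GRCm38.p6, chr1:153899679-153899928, plus strand): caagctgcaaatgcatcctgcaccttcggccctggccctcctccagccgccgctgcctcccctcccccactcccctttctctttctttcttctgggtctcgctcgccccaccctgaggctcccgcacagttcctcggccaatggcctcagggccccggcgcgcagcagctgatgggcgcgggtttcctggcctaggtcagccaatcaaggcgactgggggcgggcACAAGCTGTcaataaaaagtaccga

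The interleukin-6 pathway had 6 of 14 tested genes higher and 0 lower (median 0.99). Il6ra, the receptor, had 17.7, 22.4, 27.7 and 20.7 CPM at 10 mg, against 6.70, 2.63, 3.89, 1.58 and 7.59 CPM at 0 mg, without overlap (2.29 ± 0.46, edgeR adjusted p = 0.00052). Its signalling partner Il6st rose by 0.53. Other large rises without overlap were Arhgap26, a GTPase-activating protein (2.36), Apod, a lipid-binding lipocalin (2.30), and Inmt, a methyltransferase (2.21). In insulin signalling 6 of 23 genes were higher and 1 lower (26.1% and 4.35%, against 7.92% and 10.6% over all genes). Akt1, a kinase downstream of PI3K, was at 1.03.

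Genes of protein synthesis rose by small amounts. Of 84 cytosolic ribosomal proteins 41 were higher and 1 lower (median 0.29), or 20 higher without 10 mg replicate 3; single members of this family share reads with pseudogenes and are uncertain. That library also stood apart for neutrophil and lymphocyte markers, at a mean log2 CPM of 2.29, against -3.13 to -1.87 in the other 10 mg libraries and -3.32 to -2.52 at 0 mg. Of the 14 markers on that list 4 were below the filter, and 0 of the 10 tested passed by edgeR, with 7 at an unadjusted p under 0.05, 1 called by DESeq2 and 0 by limma voom. Their part in the count of ribosomal proteins was not tested. Of 33 translation factors 14 were higher and 1 lower (median 0.17). Eef2, which moves the ribosome along the message, had 2726, 2516, 2639 and 2746 CPM at 10 mg and 1695, 1791, 1691, 2053 and 1640 CPM at 0 mg, without overlap (0.58 ± 0.09, edgeR adjusted p = 1.3e-05). Of 38 proteasome genes 7 were higher and 2 lower (18.4% and 5.26%), or 2 higher without 10 mg replicate 3. Of 24 autophagy genes 4 were higher and 2 lower (16.7% and 8.33%). Over all genes these shares were 7.92% and 10.6%. Among the autophagy genes Map1lc3b, a protein of the autophagosome membrane, was at 0.69 and Bnip3, a mitophagy receptor, at 0.93.

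Adipocyte and lipid synthesis genes rose with the fat-rich libraries, which the adipocyte markers themselves define. Of 19 adipocyte markers 10 were higher and 0 lower (median 1.79), but none was free of overlap between the groups. Adipoq, the fat hormone adiponectin, had 2.56, 112, 53.7 and 19.6 CPM at 10 mg, against 5.15, 0.0847, 3.15, 0.789 and 14.6 CPM at 0 mg (3.27 ± 1.01, edgeR adjusted p = 0.02). Replicate 1 at 10 mg was below 3 of the 0 mg libraries. Without 10 mg replicate 2, 0 of the 19 passed and Adipoq was 2.39 (edgeR adjusted p = 0.12). Without 0 mg replicate 2 or 0 mg replicate 4, 4 passed, and Adipoq was 2.97 and 3.01 (adjusted p = 0.055 in both). Adig, adipogenin, rose by 2.38 without overlap, but the call was lost without 10 mg replicate 2 (1.77, edgeR adjusted p = 0.14), 0 mg replicate 3 (2.16, adjusted p = 0.060) or 0 mg replicate 4 (2.19, adjusted p = 0.064). Of 20 fatty acid synthesis genes 9 were higher and 1 lower (median 0.98), or 1 and 4 higher without 10 mg replicates 2 and 3 in turn. Fasn, fatty acid synthase, had 14.7, 472, 273 and 29.0 CPM at 10 mg and 17.4, 9.15, 15.6, 8.15 and 35.5 CPM at 0 mg (3.52 ± 1.00, edgeR adjusted p = 0.012), and was 2.62 without 10 mg replicate 2 (adjusted p = 0.08). With both marker covariates 1 gene of each list was higher and 1 lower. The adipocyte covariate is the mean of these same 19 markers, so that fit cannot test whether they rose.

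Slow fibre genes followed the slow-rich libraries, which the mean of these same markers defines. Of 18 markers 7 were higher and 0 lower (median 2.47), and without 10 mg replicate 2 or 4 this was 1 or 3, while without 10 mg replicate 1 it was 11. Without 0 mg replicates 2, 3 and 4 in turn it was 2, 3 and 2. Myh7 did not pass (3.53 ± 1.45, edgeR adjusted p = 0.082), but passed without 0 mg replicate 5 (4.61, adjusted p = 0.04). Sln, sarcolipin, an inhibitor of the calcium pump, had 1.75, 31.5, 6.12 and 25.5 CPM at 10 mg, against 0.705, 0.339, 0.741, 0.701 and 1.28 CPM at 0 mg. It did not overlap, was highest in the slow-rich replicates 2 and 4 (4.40 ± 0.80, edgeR adjusted p = 0.00017), and was 2.37 without them (adjusted p = 0.071). Sln is itself among the markers averaged to call these replicates slow-rich, so its high values there are no separate evidence. The largest rises, Sln included, were chosen among genes without overlap, so their lack of overlap is no separate finding. Further ones were Csrp3, a Z-disc protein (2.27), Ankrd2, a stretch-responsive protein (2.18), and Hspb7, a small heat shock protein (2.04). Without 10 mg replicates 2 and 4 these were 1.82, 1.40 and 1.32 (edgeR adjusted p = 0.24, 0.31 and 0.25). Leaving out single libraries, the call of Csrp3 was lost in 6 cases at a log2 fold change of 1.98 to 2.37 (adjusted p 0.069 to 0.11). That of Ankrd2 was lost in 5 cases at 1.85 to 2.09 (adjusted p 0.055 to 0.10), and that of Hspb7 without 10 mg replicate 2 at 1.73 (adjusted p 0.064).

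Some matrix genes fell. Of 24 fibroblast and matrix genes 9 were lower and 0 higher (median -0.51), or 5 without 0 mg replicate 5, the library rich in tendon transcripts. Of the 24, 3 were lower without overlap. Over all genes tested, 10.6% were lower and 7.3% lower without overlap. The list's mean log2 CPM of 4.18 to 4.34 at 10 mg lay inside the range of 3.24 to 5.93 at 0 mg. Col3a1, a fibrillar collagen, had 19.6, 23.9, 17.6 and 26.3 CPM at 10 mg, against 103, 78.2, 120, 39.3 and 250 CPM at 0 mg. The groups did not overlap (-2.44 ± 0.39, edgeR adjusted p = 3.7e-05). Col1a1, the main collagen of tendon, fell by 2.66, with 11.1 to 14.0 CPM at 10 mg and 16.1 to 227 CPM at 0 mg. Of 12 tendon markers 4 were lower, but without 0 mg replicate 5 the list's median was 0.30, and 1 was lower; without 10 mg replicates 1, 2 and 4 in turn, 2, 1 and 1 were lower. Of 12 Schwann cell and nerve markers 3 were higher (25%, against 7.92% over all genes), or 1 without 10 mg replicate 2 and 5 without 0 mg replicate 5. Of 17 endothelial markers 2 were higher and 1 lower (11.8% and 5.88%, against 7.92% and 10.6% over all genes; median 0.25). Aplnr, the apelin receptor, fell by 1.50 while Flt1 and Pecam1, other endothelial genes, rose by 0.79 and 0.61; the 2 rises were lost without 10 mg replicate 2 (0.64 and 0.48, edgeR adjusted p = 0.055 and 0.092).

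Fatty acid oxidation genes and PPAR targets were read because PFOS is known to act on the lipid-sensing receptor PPAR alpha in liver. Of 22 uptake and oxidation genes 1 was higher and 3 lower (4.55% and 13.6%; median -0.11), and of 26 PPAR targets 1 was higher and 2 lower (3.85% and 7.69%; median -0.07), against 7.92% higher and 10.6% lower over all genes. The medians were 0.14 and 0.18 on library totals without a scaling factor. With the slow fibre markers as a covariate they were -0.38 and -0.41, with 9 and 5 genes lower and 0 higher in each list. Pdk4, which shuts pyruvate dehydrogenase and is a PPAR target, had 325, 355, 121 and 1071 CPM at 10 mg, against 1194, 1350, 1125, 992 and 880 CPM at 0 mg. Only replicate 4 at 10 mg reached the 0 mg range, and Pdk4 did not pass (-1.24 ± 0.66, edgeR adjusted p = 0.18), but did without that library (-2.05, adjusted p = 0.045). Ucp3, the uncoupling protein of muscle, fell by 1.60 without overlap. Cyp2b9, Cyp2b10 and Cyp2b13, the mouse Cyp2b genes read, had 0 counts in all 9 libraries. Of 8 tested targets of the xenobiotic receptors CAR, PXR and AhR, 4 were higher (50%, against 7.92% over all genes) and 0 lower. Without 10 mg replicate 2, 2 were higher. Gstm1, a detoxifying transferase, was at 0.80 and without overlap.

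The mean at 1 mg/kg/day lay inside the range of the 0 mg libraries for 78% of the genes that rose at 10 mg and for 89.5% of those that fell. Nrep averaged 140.7 ± 41.2 CPM at 0 mg, 131.02 ± 12.3 CPM at 1 mg and 10.5 ± 4.3 CPM at 10 mg (SD, n = 5, 4 and 4). Pik3r1 averaged 31.2 ± 9.1, 28.2 ± 5.3 and 112 ± 23 CPM at the 3 doses in that order. Pdk4 was different, with 880 to 1350 CPM at 0 mg, 235 to 447 CPM at 1 mg and 121 to 1071 CPM at 10 mg. Contrasts with the 1 mg group were not tested here.

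**Figure D4:**
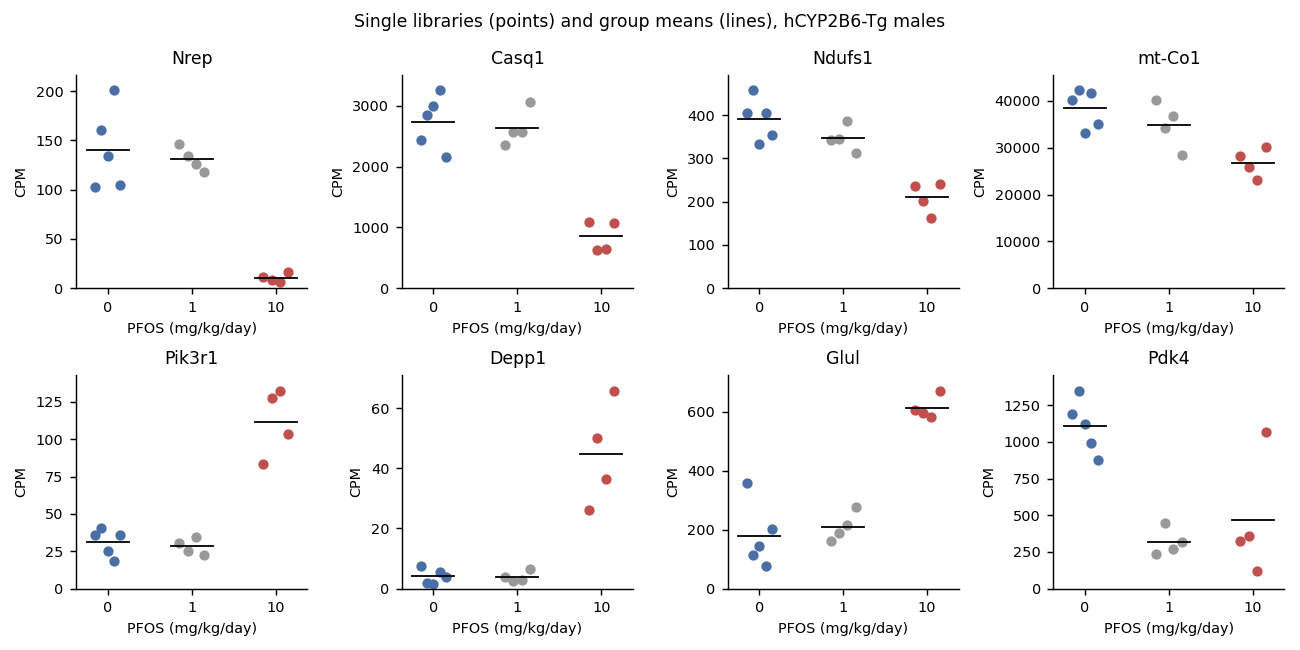
CPM of 8 genes in single libraries of hCYP2B6-Tg males (points) with group means (lines) at 0, 1 and 10 mg/kg/day. Nrep, Casq1 and Ndufs1 fall and Pik3r1, Depp1 and Glul rise at 10 mg with no overlap with 0 mg, while Pdk4 is low at 1 mg and in 3 of 4 libraries at 10 mg.

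The effect was set against the same contrast in the other strata, whose libraries are separate mice. Of the 2882 genes, 2416 (83.8%) had the same sign in all 4 strata. The share over all genes tested was not computed, so this value has no background to be set against. The median log2 fold change of the genes that rose was 0.70 here and 0.46 as the mean of the other strata, and that of the genes that fell was -0.57 here and -0.46 there; since the genes were chosen by their values here, the first of each pair is the larger by choice. A difference from the mean of the other 3 strata was called by edgeR for 5 of 15583 genes (0.0321%). Cuzd1, a zona pellucida-domain protein, was 2.93 higher in log2 fold change, but its CPM was 2.83, 2.09, 1.47 and 20.4 at 10 mg and 1.20 to 2.71 at 0 mg, so that the value rests on 10 mg replicate 4. The others were Tcim (1.62), the mitochondrial ribosomal RNAs mt-Rnr1 (1.29) and mt-Rnr2 (1.03), and the exonuclease gene Xrn1 (-0.54). mt-Rnr1 had 820, 796, 547 and 967 CPM at 10 mg and 467 to 708 CPM at 0 mg. The libraries were made from purified messenger RNA, per the labels, and ribosomal RNA carry-over was not tested. None of the 5 differences was called without 10 mg replicate 4, 0 mg replicate 1, 0 mg replicate 3 or 0 mg replicate 4.

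**Figure D5:**
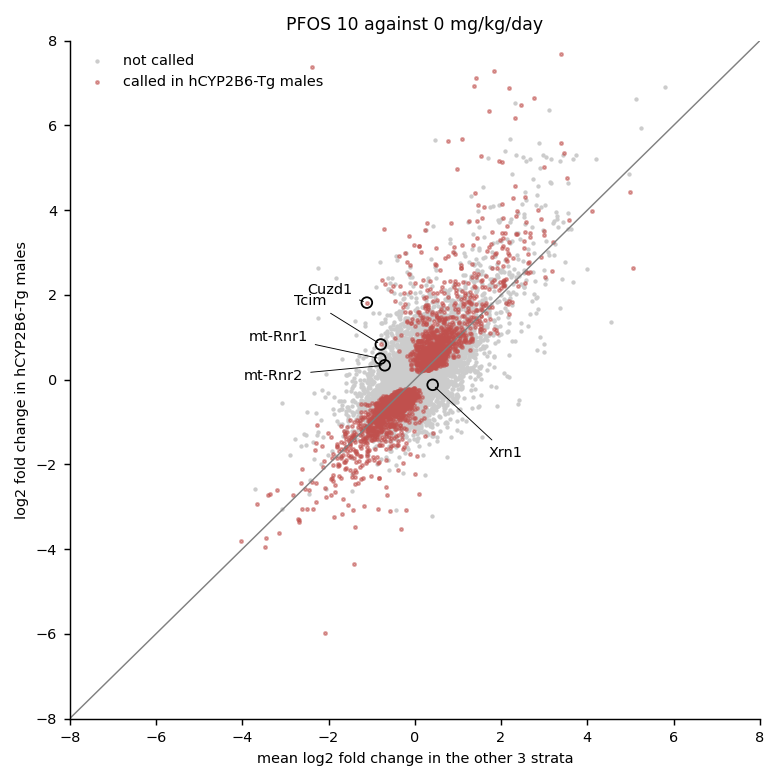
Log2 fold change of each tested gene in hCYP2B6-Tg males (vertical axis) against the mean of the other 3 strata (horizontal axis), with called genes in red and the line of equality in grey. Most called genes lie near the line, and the 5 circled genes are those whose difference passed.

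Against hCYP2B6-Tg females the effect differed for 139 genes (0.892%), 43 more positive and 96 more negative in males. This fell to 27 without 10 mg replicate 4, 52 without 10 mg replicate 3, 57 without 0 mg replicate 1 and 76 without 0 mg replicate 3. By the naming rule the most positive differences after Cuzd1 (3.58) were for Fgfbp1, a carrier of fibroblast growth factors (1.83), and the receptor kinase gene Ret (1.74). The most negative were for Odf3l2 (-3.58) and the zinc finger genes Zfp871 (-2.26) and Zim1 (-2.10). The effect in males alone could have another sign than the difference. With the adipocyte covariate it was -0.86 for Fgfbp1 and -0.91 for Ret (edgeR adjusted p = 0.053 and 0.041). It was 0.63 for Odf3l2, -0.79 for Zfp871 and -0.08 for Zim1 (adjusted p = 0.58, 0.17 and 0.93). The last 3 did not pass, so their signs are uncertain. Without a covariate all of these genes had the same signs, and Fgfbp1 passed while Ret did not. Against Cyp2b-null males 0 differences were called by edgeR, with 1160 genes at an unadjusted p under 0.05, 3 called by DESeq2 and 5 by limma voom. Slow fibre markers had a median log2 fold change of 2.47 here and -0.12 as the mean of the other strata, a difference that was not called for any of the 18 markers.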

How the data were processed

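Messenger RNA purified from total RNA of gastrocnemius muscle was sequenced in 48 mice, per the labels. What the authors deposited is 1 file of raw counts of reads per gene, with symbols and coordinates. The submitters' processing notes name HISAT2 and GRCm39 without a role. The coordinates are those of GRCm38: of the identifiers shared with GENCODE vM21, 98.3% have the same start and end there. For the counting program and its use of strand, no statement was found in the labels or the file header.

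Genes were filtered with filterByExpr over all 48 libraries and 12 groups, scaled with TMM and fitted with edgeR 4.0.16 (R 4.3.3), 1 coefficient per group, 36 residual degrees of freedom. Quasi-likelihood tests were two-sided, with Benjamini-Hochberg adjustment over the 15583 genes tested and a threshold of 0.05. SE is that of the log2 fold change. CPM use the deposited counts and TMM-scaled library sizes, with a prior count of 0.5 for log2 CPM. Library measures were compared with exact permutation tests (scipy 1.17.1), and differences between strata were contrasts of the same fit. The labels number the replicates but name no litter or day, so p-values measure the spread between these libraries. No pair of libraries within the 2 groups agreed within counting error (lowest chi-square per degree of freedom 11.6).

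Named genes are the 12 largest rises and 12 largest falls without overlap among genes called with a mean log2 CPM of at least 1, up to 4 members of each list by smallest p, up to 5 in each direction for differences between strata, and a set of muscle, fat and liver genes read in any case. Predicted genes are counted only, and not every gene the rule takes is described. Genes named outside the rule, for a promoter match or an antisense partner, were chosen after their values were seen. Members, the 49 gene lists (15 of them cell type markers) and the tests were chosen with earlier results of these data known. In each list 1 gene stands for a symbol. Alternatives were other scalings and filters, DESeq2 1.42.0, limma 3.58.1 voom, marker levels as covariates, the replicate number as block, and libraries left out. The alternatives that leave out several 10 mg libraries or use both covariates were chosen after seeing the data. The fitting code was tested on simulated data.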

Additional observations from a re-analysis of the deposited data

Results flagged for a closer look

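In 11 of 206 groups of values examined, 1 library stood far from the others of its group (5.34%, where chance gives about 1 in 20). The lymph node vessel markers were at a mean log2 CPM of 2.38 in 10 mg replicate 3, with Glycam1 at 3.88 CPM in that library. The Schwann cell and nerve markers were at 2.31 in 0 mg replicate 5, the library in which Col1a1 reached 227 CPM. Fbxo32 and Trim63 stood apart in 10 mg replicate 4, at 1754 and 909 CPM, as did Cuzd1 at 20.4 CPM. Tcim stood apart in 10 mg replicate 2 (12.7 CPM), Zfp871 in 10 mg replicate 1 (6.34 CPM), Gamt in 0 mg replicate 4 (16.5 CPM) and Odf3l2 in 0 mg replicate 1 (31.9 CPM).

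Differences between strata in the effect of 10 against 0 mg/kg/day, in log2 fold change and tested as contrasts in edgeR, passed for these genes. Against the mean of the other 3 strata they were 2.93 for Cuzd1, 1.62 for Tcim, 1.29 for mt-Rnr1, 1.03 for mt-Rnr2 and -0.54 for Xrn1. Against hCYP2B6-Tg females they were 3.58 for Cuzd1, 1.83 for Fgfbp1, 1.74 for Ret, 1.48 for mt-Rnr1, 0.63 for Gyg, -0.82 for Xrn1, -2.10 for Zim1, -2.26 for Zfp871 and -3.58 for Odf3l2. Cuzd1, Tcim, Zfp871 and Odf3l2 are also among the genes for which 1 library stood apart.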

How the results depend on the processing

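The count of 2882 genes was within 1.5 times under DESeq2 size factors, library sizes without mitochondrial and the 20 most abundant genes, both filters, DESeq2 and limma voom. It was 1819 with only the 9 libraries compared, 4690 on library totals without a scaling factor, 1498 with the adipocyte markers, 1598 with the slow fibre markers and 1308 with both as covariates, and 1652 without 10 mg replicates 2 and 4. It was 26 with only 10 mg replicate 1 left, where that library is assumed to vary like the other groups. Leaving out single libraries it ran from 1540 to 3484. The 5 differences from the other 3 strata became 2 with only the libraries compared, 3 on unscaled totals, 39 by DESeq2, 11 with the adipocyte covariate, and 0 with the slow fibre covariate, with both covariates, without 10 mg replicates 2 and 4 and with only 10 mg replicate 1, and 0 to 16 without single libraries. The 139 differences from hCYP2B6-Tg females became 2 with only the libraries compared, 63 on unscaled totals, 42 with no filter, 309 by DESeq2, 30 without 10 mg replicates 2 and 4, 0 with only 10 mg replicate 1, and 27 to 191 without single libraries. The 0 differences from Cyp2b-null males became 3 by DESeq2 and 5 by limma voom, and stayed 0 without single libraries.

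Without single libraries, the difference in mitochondrial share of counts (10 minus 0 mg) was -1.96 to -1.45 percentage points, that in the share of the 20 most abundant genes -6.36 to -4.47, and that in genes detected 808 to 1578. With 8 libraries the exact permutation test has fewer regroupings. Without a 10 mg library its smallest p, 0.0357, adjusts to 0.0536 for either share, so neither could pass. Without a 0 mg library both could. The share of the 20 most abundant genes then kept its call in each case (adjusted permutation p = 0.0476). The mitochondrial share kept it only without 0 mg replicate 3 (adjusted p = 0.0429) and was otherwise at 0.0635.

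Of 86 named genes with a test, directions turned for few. On unscaled totals Xrn1 was 0.14 and Zim1 0.17. With the slow fibre covariate Myh1 was -0.27, Myh2 -0.86 and Myh7 -0.36, and with both covariates -0.27, -0.73 and -0.50. Myh7 is itself among the markers averaged in the slow fibre covariate, so its turn there does not test its direction. Without single libraries Zim1 ran from -0.229 to 0.0066, and was 0.0019 without 0 mg replicate 2. Myh2 was -0.0486 without 10 mg replicates 2 and 4. With only 10 mg replicate 1 left, Myh7 was -1.23, Adipoq -0.92, Fasn -0.22, Xrn1 0.17 and Zfp871 0.13, 67 of the 72 named genes called with all libraries lost their call, and the medians of the adipocyte and slow fibre lists were -0.71 and -0.37, while those of complex I and ATP synthase were -0.41 and -0.41. The cause of these changes was not tested.

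Same-numbered libraries of the 2 doses did not deviate together (correlations 0.025, -0.144, 0.0509 and 0.135), so the numbers were not taken to pair mice. With the replicate block 3379 genes were called, 7 and 99 differences from the other 3 strata and from hCYP2B6-Tg females, and 0 from Cyp2b-null males.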
